A study of Homo sapiens with 12 samples.

Results

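The messenger RNAs of the large ribosomal subunit proteins were measured in AC16 cells and in the exosomes these cells released. Members were genes whose symbol begins with RPL and a digit, together with RPLP0, RPLP1 and RPLP2, without pseudogenes. The rule found 54 of the 15414 genes listed in either compartment. Of these, 2 are readthrough genes (RPL17-C18orf32 and RPL36A-HNRNPH2), which span an RPL gene and its neighbour and were kept out of medians and counts. Of the remaining 52, RPL3L had 1 to 5 reads in each cell library, was not among the genes listed in exosomes and was not tested. The other 51 were tested in every comparison.

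The established human line AC16 was derived by fusion of cells of adult ventricular muscle with transformed fibroblasts, and exosomes are secreted vesicles bounded by a membrane. Cells and exosomes each carried the labels Con and Ang, which made 4 groups of 3 libraries. Con and Ang are not spelled out in the labels, which give no dose or time. Per the labels' protocols, cells and exosomes also differed in extraction kit (miRNeasy Micro against exoRNeasy Maxi) and in library kit (VAHTS Universal V6 against SMARTer Stranded Total RNA), so compartment and kit cannot be told apart. The labels do not say that libraries came from separate cultures, so the spread behind each p-value is that of these libraries and may be technical. Reads on genes numbered 9202471 to 11212674 in the cell libraries and 535442 to 745311 in the exosome libraries. Of 11 cardiomyocyte markers, 7 were listed in cells, at 29.3 to 38.3 CPM (reads per 1000000 gene reads, here by raw totals) summed, and MYH6, MYL2, MYL7 and TBX5 were not among the listed genes. All 10 fibroblast markers were listed, at 6074 to 7472 CPM summed.

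The large subunit of the ribosome carries the peptidyl transferase centre, the tunnel through which the new protein leaves and the stalk that recruits translation factors. Each of its proteins is needed in one copy per ribosome, except the stalk proteins RPLP1 and RPLP2, which are held in several copies by RPLP0. Most messenger RNAs of ribosomal proteins begin with a run of pyrimidines, the 5′ terminal oligopyrimidine (TOP) motif, through which mTOR signalling and LARP1 control their translation. Ribosomal protein messages are short and abundant, and many of their introns hold small nucleolar RNA genes.

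Most annotated starts of these genes had a long run of pyrimidines at or near them. RefSeq start windows (build GRCh38.p14) were matched for 42 of the 52 members. The windows below hold 15 bases before the start and 15 from it on, read 5′ to 3′ on the gene's strand, with the longest run of C and T in capitals. The first 4 belong to genes with the highest exosome over cell ratios described below, the next 3 to genes with the lowest, and the last 3 to the most abundant member per kilobase, the member with the longest run and the member with the shortest. They lie at chr11:809952-809981 (RPLP2, plus strand), chr3:51995881-51995910 (RPL29, minus), chr19:55385917-55385946 (RPL28, plus), chr9:127451392-127451421 (RPL12, minus), chr14:49620612-49620641 (RPL36AL, minus), chr15:66504841-66504870 (RPL4, minus), chr3:101686704-101686733 (RPL24, minus), chr19:49487593-49487622 (RPL13A, plus), chr9:133348203-133348232 (RPL7A, plus) and chr6:42879601-42879630 (RPL7L1, plus).
RPLP2: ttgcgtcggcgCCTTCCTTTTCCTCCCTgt
RPL29: caccgcagCCCCTTTCTCTTCCggttctag
RPL28: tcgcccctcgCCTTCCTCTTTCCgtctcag
RPL12: ccgcgcgatttccggCCTCTCggctttcgg
RPL36AL: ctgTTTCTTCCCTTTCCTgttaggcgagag
RPL4: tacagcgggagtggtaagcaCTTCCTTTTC
RPL24: ttcccatgaTTCTCTCTTTCTTTTCgccat
RPL13A: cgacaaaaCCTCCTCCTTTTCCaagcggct
RPL7A: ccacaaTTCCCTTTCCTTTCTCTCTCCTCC
RPL7L1: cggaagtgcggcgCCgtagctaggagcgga

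The longest run that touched the stretch from 10 bases before to 20 bases after any annotated start had a median of 12 bases in the members and 5 bases over the 12353 listed genes with a start window. It reached 10 or more bases in 36 of 42 members (85.7%) and in 12.4% of all. Where several starts were listed, the longest run was kept, and a run need not begin at the start. Relative to the start, it ran from -22 to -9 in RPL10 and from 18 to 34 in RPL32. The counts are thus of runs near a start and not of TOP motifs. RPL7A had the longest run, 25 bases, part of which lies beyond the printed window. The run of RPL7L1, a paralog of RPL7 that works in ribosome assembly, was 2 bases long. RPL12, RPL26L1, RPL36, RPL3 and RPL6 had runs of 5 to 7 bases. RPL36AL and RPL24, near the bottom of the exosome over cell order, had runs of 15 and 16 bases, and RPLP2, at its top, had 17. RPL36 and RPL26L1, also near its top, had 7 and 6. Over the 42 members, run length and exosome over cell log2 fold change had a Spearman correlation of 0.03, given as a description. Members with a run under 10 bases had a median log2 fold change of 1.28 (n = 6), and those with 10 or more had 0.79 (n = 36), a difference that was not tested. Other motifs were searched on both strands of the 300 bases from 250 before to 50 after the start. CCGGAA, the core of sites for ETS factors, was present in 22 of 42 members (52.4%) and in 31.2% of all. AAGATGG, the core of YY1 sites, was in 6 (14.3%) and in 8.65% of all, and TATAAA was in 4 (9.52%) and in 9.94% of all.

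**Figure D1:**
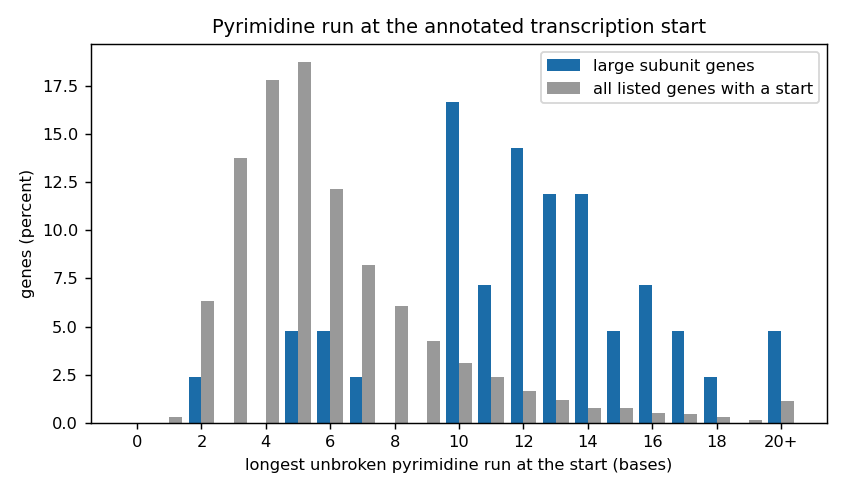
Percent of genes (vertical axis) by the longest unbroken pyrimidine run at or near the annotated start in bases (horizontal axis, 20 and over joined), for the 42 large subunit genes with a start window (blue) and all 12353 listed genes with one (grey). The blue bars centre near 12 bases and the grey bars near 5.

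The 51 genes lay on 19 chromosomes, with a median transcript length of 1041 bases against 3187 bases over all genes tested, and a median coding length of 468 against 1422 bases. Of them, 19 (37.3%) held annotated small nucleolar RNA genes, 40 in all, against 1.65% of all genes tested. Annotation lengths and gene positions are those of GENCODE release 29 on GRCh38.

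Large subunit messages took up a larger share of gene reads in exosomes than in cells. The 54 genes held 2.84 to 2.97% of gene reads in the 6 cell libraries (2.93% ± 0.05, SD, n = 6) and 4.79 to 5.002% in the 6 exosome libraries (4.91% ± 0.09, SD, n = 6). Every exosome library lay above every cell library, and the ratio of the means was 1.68. By group the share was 2.90% ± 0.07 in Con cells, 2.96% ± 0.01 in Ang cells, 4.96% ± 0.04 in Con exosomes and 4.86% ± 0.10 in Ang exosomes (SD, n = 3 each). The small subunit messages moved alongside, from 1.34% ± 0.05 to 2.17% ± 0.03. Large over small subunit reads stood at 2.10 to 2.26 in cells and at 2.17 to 2.32 in exosomes, ranges that overlap. Within a label they did not overlap. With Con the ratio was 2.19 to 2.26 in cells and 2.284 to 2.32 in exosomes. With Ang it was 2.10 to 2.16 in cells and 2.17 to 2.281 in exosomes, below the Con range of the same compartment. These differences in ratio were not tested. In bulk RNA, more vesicles that hold these messages and more of them per vesicle cannot be told apart.

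**Figure D2:**
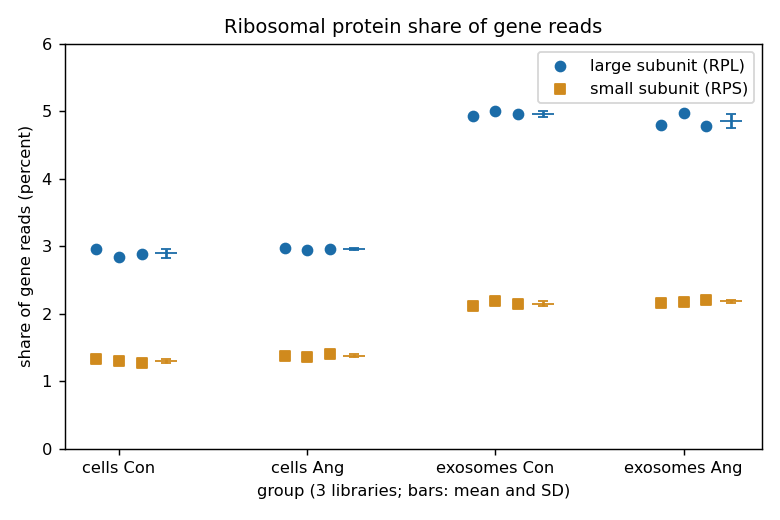
Share of gene reads in percent (vertical axis) of the large subunit genes (blue circles) and the small subunit genes (orange squares) in each of the 12 libraries, by group, with mean and SD beside the points. All exosome points lie above all cell points of the same colour.

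Gene by gene, 45 of the 51 members were higher in exosomes than in cells at an adjusted p under 0.05 (edgeR's quasi-likelihood test, Benjamini-Hochberg adjustment over 11811 genes) and 0 were lower. Over all genes tested, 17.6% were called higher and 19.5% lower. All 51 fold changes were above 0, with a median of 0.81 on the log2 scale (1.75-fold) and a range of 0.09 to 2.10, and the median of all genes was -0.15. In 42 of the 51 the libraries of the compartments did not overlap, with exosomes higher, which held for 10.1% of all genes. With raw library totals in place of the trimmed mean scaling, the median of all genes moved to -0.36, that of the members to 0.59, and 41 members were called higher, against 13.1% of all genes. Of all calls, 47.5% were higher under the trimmed mean scaling and 31.8% under raw totals. The members' median minus the median of all genes was 0.95 under both. Within the Con libraries alone 45 members were called higher (11.3% of all genes), and within the Ang libraries alone 36 (9.58%).

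**Figure D3:**
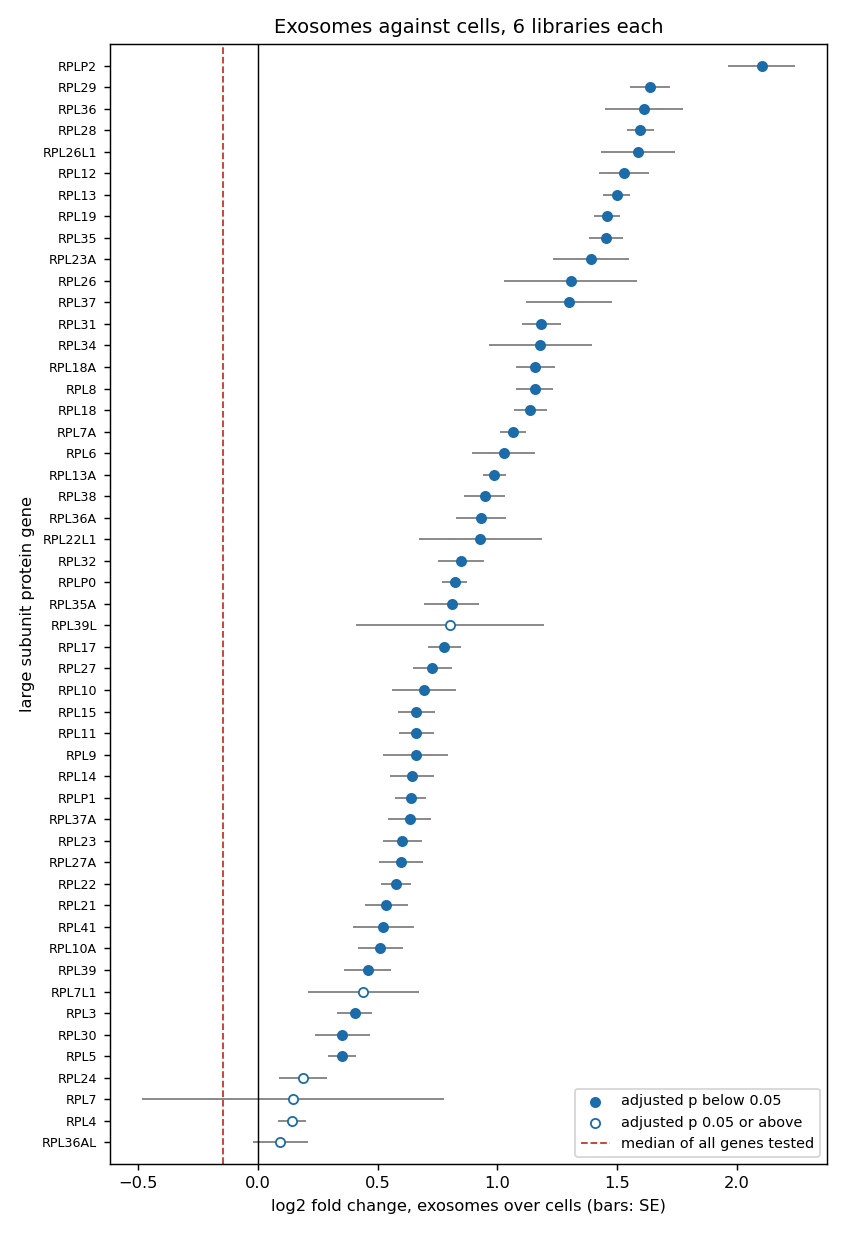
Log2 fold change of exosomes over cells with its SE (horizontal axis) for each of the 51 tested large subunit genes (vertical axis, ordered by value). Filled points passed an adjusted p of 0.05, open points did not, and the dashed line is the median of all genes tested, at -0.15. Every point lies right of 0.

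Levels of single genes below are CPM scaled over the 12 libraries by the trimmed mean of M-values, and each SE is on the log2 scale. Of the 51 members 88.2% were called higher, and so were all 4 stalk genes, with log2 fold changes from 0.64 to 2.10. RPLP2, an acidic protein at the tip of the stalk (chr11:809647-812880, plus strand), read 277, 308 and 347 CPM in Con cells and 464, 238 and 383 CPM in Ang cells. In exosomes it read 1423, 1274 and 1446 CPM with Con and 1557, 1519 and 1426 CPM with Ang. The exosome libraries all lay far above the cell libraries, and the log2 fold change was 2.10 (SE 0.14, adjusted p = 2.51e-07, edgeR), the largest of the members.
RPL12, which sits at the base of the stalk, read 911, 609 and 914 CPM in Con cells, 924, 709 and 812 CPM in Ang cells, 2413, 2444 and 2350 CPM in Con exosomes and 2232, 2460 and 2186 CPM in Ang exosomes. Its log2 fold change was 1.53 (SE 0.10, adjusted p = 3.55e-07). RPLP0, the scaffold of the stalk, rose from 1477 to 1638 CPM in cells to 2590 to 2985 CPM in exosomes, by 0.82 on the log2 scale (SE 0.05). RPLP1, the partner of RPLP2, rose from 787 to 857 CPM to 1159 to 1376 CPM, by 0.64 (SE 0.06). The partners RPLP1 and RPLP2, which form a dimer, thus had exosome over cell folds of 1.56 and 4.30; the difference between these genes was not tested.

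Messages for the proteins around the mouth of the exit tunnel, where chaperones and the signal recognition particle dock, were also high in exosomes. All 6 listed genes (RPL19, RPL22, RPL23A, RPL26, RPL31 and RPL35) were called higher, beside 88.2% of all members. Their median log2 fold change was 1.35. RPL17 and RPL39 were listed with the tunnel wall, described next. RPL19 stood at 1010 to 1078 CPM in cells and at 2635 to 3045 CPM in exosomes, with a log2 fold change of 1.46 (SE 0.05, adjusted p = 1.53e-09). RPL35, which contacts the signal recognition particle, stood at 579 to 650 CPM and at 1520 to 1810 CPM. RPL22 moved least of the 6, from 681 to 727 CPM to 982 to 1114 CPM, a log2 fold change of 0.58 (SE 0.06).

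Along the tunnel wall, 2 of 3 genes were called higher, with a median of 0.46. RPL4, which reaches into the tunnel with a long loop, read 1401, 1327 and 1468 CPM in Con cells, 1334, 1415 and 1476 CPM in Ang cells, 1556, 1624 and 1556 CPM in Con exosomes and 1508, 1435 and 1628 CPM in Ang exosomes. Its compartments overlapped, and its log2 fold change of 0.14 (SE 0.06) had an adjusted p of 0.0737. RPL17 was called higher at 0.78, and RPL39, a very small protein of the lower tunnel, at 0.46 (SE 0.10, adjusted p = 0.00313), with 199 to 211 CPM in cells and 260.3 to 318 CPM in exosomes.

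RPL5 and RPL11, which carry the 5S ribosomal RNA into the subunit and, outside it, bind MDM2, were both higher in exosomes. RPL5 read 1002, 1030 and 1067 CPM in Con cells, 1237, 1187 and 1068 CPM in Ang cells, 1443, 1442 and 1461 CPM in Con exosomes and 1337, 1341 and 1374 CPM in Ang exosomes. Its exosome libraries all exceeded its cell libraries by a small step, 0.35 on the log2 scale (SE 0.06, adjusted p = 0.000565). RPL11 had a log2 fold change of 0.66 (SE 0.07). Under raw totals RPL5 was at 0.14 with an adjusted p of 0.0807, and within Ang alone at 0.22 with 0.115.

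Around the peptidyl transferase centre, RPL3, RPL8 and RPL10 were all called higher. RPL3 rose from 1462 to 1574 CPM to 1731 to 2242 CPM, by 0.40 on the log2 scale (SE 0.07), and RPL8 from 658 to 755 CPM to 1386 to 1853 CPM, by 1.16 (SE 0.08). RPL10, one of the last proteins to join the subunit, read 352, 264.7 and 193 CPM in Con cells, against 348, 360.1 and 362 CPM in Ang cells and 417 to 547 CPM in exosomes, with a log2 fold change of 0.69 (SE 0.13).

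Of 5 genes for late joining proteins and bridges to the small subunit, 4 were called higher (RPL19, RPL30, RPL38 and RPL41), with a median of 0.52. RPL24 was not, at 365, 319.6 and 328 CPM in Con cells, 391, 353 and 374 CPM in Ang cells, 361, 405 and 459 CPM in Con exosomes and 363, 373 and 463 CPM in Ang exosomes. These ranges overlap, and the log2 fold change of 0.19 (SE 0.10) had an adjusted p of 0.161. RPL30 read 148 to 170.5 CPM in cells and 160.2 to 239 CPM in exosomes, a log2 fold change of 0.35 (SE 0.12, adjusted p = 0.0295), which within the Ang libraries alone was 0.14 with an adjusted p of 0.605 and under raw totals 0.14 with 0.352. RPL41, with the shortest coding length of the set (75 bases), had a log2 fold change of 0.52 (SE 0.13, adjusted p = 0.00624).

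The other large ratios belonged to messages for proteins spread over the subunit. RPL29 read 259, 261 and 257 CPM in Con cells, 234, 270.3 and 297 CPM in Ang cells, 781, 813 and 842 CPM in Con exosomes and 877, 821 and 773 CPM in Ang exosomes, with a log2 fold change of 1.64 (SE 0.08, adjusted p = 2.5e-08). RPL28 stood at 752 to 817 CPM in cells and at 2206 to 2512 CPM in exosomes, a log2 fold change of 1.60 (SE 0.05, adjusted p = 7.39e-10). RPL36 stood at 54.5 to 119 CPM and at 223 to 355 CPM, a log2 fold change of 1.61 (SE 0.16). In all 3 genes every exosome library exceeded every cell library. The 9 members in which mutations are known to cause Diamond-Blackfan anaemia, a failure of red cell production, were all called higher, beside 88.2% of the whole set. Their median was 0.81, the value of the whole set.

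Of the paralogs, which encode variants of a member and are often tissue-restricted, 5 were tested and 2 were called higher. RPL26L1 read 41.3, 43.5 and 38.8 CPM in Con cells, 39.0, 41.6 and 45.9 CPM in Ang cells, 90.7, 88.1 and 114 CPM in Con exosomes and 163, 191 and 128 CPM in Ang exosomes. Its exosome libraries all lay above its cell libraries, with a log2 fold change of 1.59 (SE 0.15, adjusted p = 7.56e-06), beside 1.31 (SE 0.28) for its parent RPL26. RPL22L1 had a log2 fold change of 0.93 (SE 0.26, adjusted p = 0.0131), on 10 to 54 reads a library in exosomes, and within the Ang libraries alone it was 0.44 with an adjusted p of 0.4996. RPL7L1 (0.44, SE 0.23) and RPL39L (0.80, SE 0.39) did not pass.
RPL36AL, a copy of RPL36A that arose by retroposition, gave the lowest value of the set. It read 268, 249 and 247 CPM in Con cells, 270.02, 271 and 272 CPM in Ang cells, 298, 289 and 294 CPM in Con exosomes and 283, 318 and 202 CPM in Ang exosomes, a log2 fold change of 0.09 (SE 0.11, adjusted p = 0.543). RPL36A itself stood at 488 to 725 CPM in cells and at 1045 to 1186 CPM in exosomes, a log2 fold change of 0.93 (SE 0.10). The reads of RPL36AL were 37.5 to 55.3% of those of RPL36A in cells and 17.5 to 30.4% in exosomes, ranges that do not overlap.
In cells, reads of RPL22L1 were 2.96 to 4.28% of those of RPL22, reads of RPL26L1 4.13 to 16.9% of those of RPL26 (median 7.30%), and reads of RPL39L 2.18 to 15.3% of those of RPL39 (median 14.6%). The 16.9% came from Ang cells 3, where RPL26 was low, and the 2.18% from Ang cells 2, where RPL39L was low. RPL3L, the striated muscle form of RPL3, had 0.0067 to 0.0291% of the reads of RPL3.

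Other gene groups tied to the ribosome differed in how many were called. Of 32 small subunit protein genes, 29 were higher in exosomes and 0 lower, with a median of 0.78, close to that of the large subunit. RPS15 (1.62), FAU (1.51), which encodes a fusion with RPS30, and RPS19 (1.47) led them. Of 49 mitochondrial large subunit genes, 18 were higher and 1 lower (MRPL50), with a median of 0.33, led by MRPL36 (2.29), MRPL28 (2.10) and MRPL53 (1.97). In exosomes MRPL36 stood on 6 to 34 reads a library, MRPL53 on 6 to 29 and MRPL50 on 0 to 25, which limits their precision. Within the Ang libraries alone 6 of the mitochondrial genes were called higher. Of 22 genes in a list of further TOP messages, which also holds FAU, 16 were higher and 1 lower (EIF3E), with a median of 0.51. After FAU it was led by NACA (1.35) and the elongation factor EEF2 (1.24). Under raw totals the mitochondrial median was 0.12 (15 higher, 3 lower) and that of the TOP list 0.29 (12 higher, 3 lower). Of 47 genes for assembly and export of the large subunit, 14 were higher and 8 lower, with a median of 0.09, which was -0.13 under raw totals, with 12 higher and 13 lower. DDX51 (2.40), NOC2L (1.65) and PPAN (1.54) rose, and NOP2 (-1.48), GNL2 (-1.42) and WDR12 (-1.37) fell. Few exosome reads stood behind PPAN (9 to 25 a library), NOP2 (4 to 17) and WDR12 (0 to 14). Of 17 regulators of TOP translation, 3 (17.6%) were higher and 4 (23.5%) lower, near the shares over all genes tested (17.6% and 19.5%).

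Between Ang and Con in cells, no member passed the test. Of 51, 0 were called (edgeR, adjusted p under 0.05), as were 0% of 13331 genes. An unadjusted p under 0.05 was seen in 6 of the 51 members and in 816 of the 13331 genes. DESeq2 called 0 members and 0.521% of genes. The median log2 fold change was 0.04, with 37 values above 0 and 14 below. The Ang libraries lay wholly above the Con libraries in 12 members, against 7.01% of all genes, and wholly below in 1, against 6.89%. Overlap between labels was counted on CPM scaled within the compartment, so close values can order otherwise than in the CPM printed. RPL5, whose groups meet at 1067 (Con) and 1068 CPM (Ang) as printed, was not counted as separate in cells.
The smallest p-values belonged to RPL22L1, RPL38 and RPL18. RPL22L1 read 23.7, 25.97 and 20.7 CPM with Con and 28.8, 30.1 and 30.4 CPM with Ang, without overlap, a log2 fold change of 0.33 (SE 0.11, adjusted p = 0.795). RPL38 read 215, 217 and 221 CPM with Con and 238, 237 and 242 CPM with Ang, a narrow step without overlap, at 0.13 (SE 0.04, adjusted p = 0.795). RPL18 read 365, 358 and 358 CPM against 379, 394 and 397 CPM, at 0.11 (SE 0.04, adjusted p = 0.795).
RPL36 was the member whose Ang libraries lay wholly below its Con libraries, with 104, 119 and 101 CPM against 67.8, 54.5 and 95.6 CPM, at -0.58 (SE 0.22, adjusted p = 0.795). None of these passed the test.

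In exosomes 0 members were called as well, against 0.012% of 8327 genes. An unadjusted p under 0.05 was seen in 3 members and in 316 of the 8327 genes. DESeq2 called 0 members and 0.192% of genes. The median log2 fold change was -0.03, with 20 values above 0 and 31 below. Ang lay wholly above Con in 4 members (5.18% of all genes) and wholly below in 3 (5.6%).
RPL26L1 had the largest rise, from 88.1 to 114 CPM to 128 to 191 CPM, at 0.72 on the log2 scale (SE 0.28, adjusted p = 0.999), on 60 to 104 reads a library. RPL23A read 1913, 1983 and 2018 CPM with Con and 1712, 1712 and 1708 CPM with Ang, a log2 fold change of -0.20 (SE 0.08, adjusted p = 0.999). RPL13 read 2267, 2149 and 2009 CPM with Con and 2500, 2326 and 2445 CPM with Ang, at 0.18 (SE 0.08, adjusted p = 0.999). These groups did not overlap, and none of the 3 genes passed the test.
RPL26 also separated, with 1833, 1945 and 1886 CPM with Con and 1254, 825 and 1700 CPM with Ang, at -0.58 (SE 0.24, adjusted p = 0.999).

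The difference of the Ang against Con changes between compartments passed the test in edgeR for 0 members, against 0.0254% of 11811 genes. An unadjusted p under 0.05 was seen in 3 of the 51 members and in 971 of the 11811 genes. DESeq2 called 1 member, RPL26L1, at 0.72 with an adjusted p of 0.0423, and 3.12% of all genes. In edgeR, RPL26L1 was at 0.69 (SE 0.30, adjusted p = 0.595), RPL5 at -0.27 (SE 0.12, adjusted p = 0.584) and RPL27A at -0.40 (SE 0.18, adjusted p = 0.603). RPL5 thus read higher with Ang in cells (0.17, SE 0.06) and lower with Ang in exosomes (-0.10, SE 0.09), and neither value passed its test. Over the 51 members the Spearman correlation of the Ang against Con changes in cells and in exosomes, which share no library, was 0.01.

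**Figure D4:**
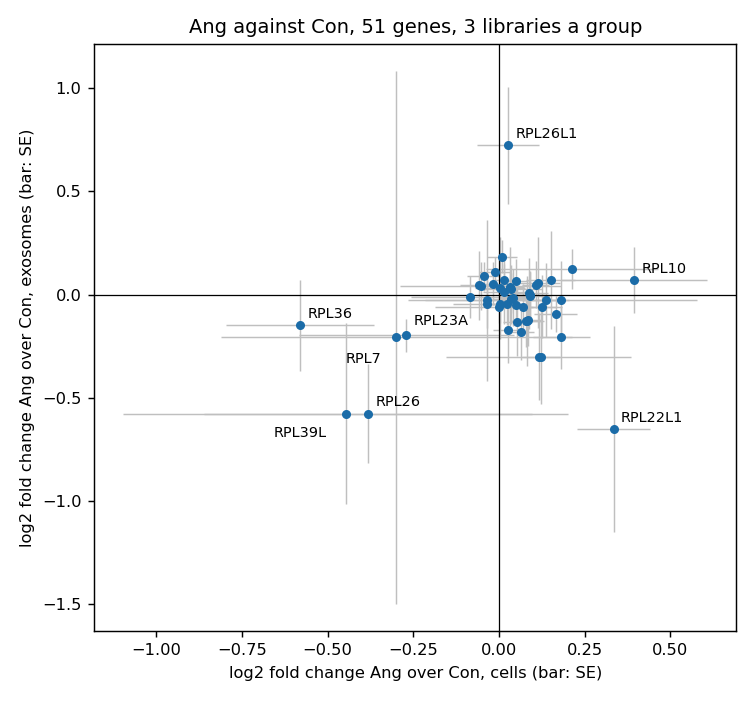
Log2 fold change of Ang over Con in cells (horizontal axis) and in exosomes (vertical axis) for the 51 tested large subunit genes, with SE bars. Most points sit near 0 on both axes, and the labelled points far from it have wide bars or few reads.

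Members varied less between libraries of a group than the median gene did. Among members with a mean of at least 100 reads, the median coefficient of variation of raw CPM was 3.86% in Con cells, 3.72% in Ang cells, 5.79% in Con exosomes and 8.85% in Ang exosomes. Over all genes with a mean of at least 100 reads it was 8.52%, 8.35%, 15.4% and 15.2%. Members and all genes share this lower limit but were not matched for read number, which bears on such a spread. RPL3 in Con cells varied by 0.307% and RPL13A in Con exosomes by 0.332%.
A few members dropped in single libraries. A departure of more than 2-fold from the median of the compartment was seen in 4 of 51 members in cells (7.84%, against 10.6% of all genes) and in 2 of 47 in exosomes (4.26%, against 22.9%).
RPL7 read 414, 383 and 365 CPM in Con cells and 105, 431 and 414 CPM in Ang cells, then 456, 107 and 688 CPM in Con exosomes and 509, 557 and 16.0 CPM in Ang exosomes. The low values stood on 1034, 73 and 8 reads, and the last lay 30.03-fold below the median of the exosome libraries. Its log2 fold change between compartments, 0.15 (SE 0.63, adjusted p = 0.873), had the widest error of the members, and it was below 0 without any one of Ang cells 1, Con exosomes 3, Ang exosomes 1 or Ang exosomes 2 (-0.14 to -0.02).
RPL39L read 28.2 to 31.4 CPM in 5 cell libraries and 4.59 CPM in Ang cells 2, on 50 reads. RPL23A read 747 to 819.9 CPM in 5 cell libraries and 352 CPM in Ang cells 3. RPL26 lay 2.09-fold below the median of the cell libraries in Ang cells 3 (3085 reads). It lay 2.16-fold below that of the exosome libraries in Ang exosomes 2 (449 reads).
RPL26, RPL6 and RPL34 were highest in the first library of each cell group, as was RPL24. The pattern was picked after the values were seen, and how many of all genes share it was not counted. RPL34 read 180.1, 85.1 and 90.03 CPM in Con cells and 191, 118 and 96.1 CPM in Ang cells, and 257 to 316 CPM over all exosome libraries.

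**Figure D5:**
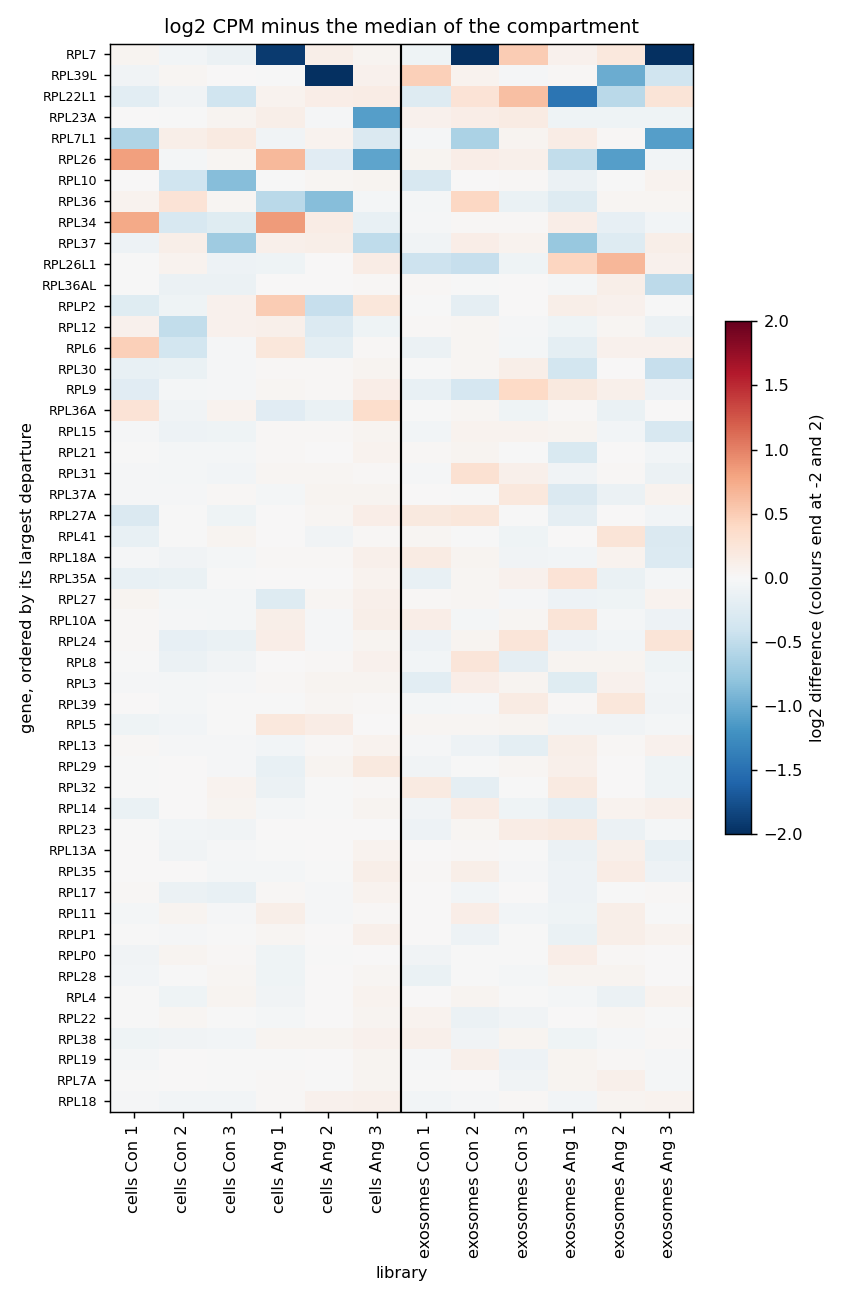
Log2 CPM minus the gene's median over the 6 libraries of its compartment (colour, ending at -2 and 2) for the 51 tested large subunit genes (rows, ordered by largest departure) in the 12 libraries (columns). RPL7 is dark blue in Ang cells 1, Con exosomes 2 and Ang exosomes 3, RPL39L in Ang cells 2, and most other rows are pale throughout.

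Part of the scatter of RPL36A was matched by its readthrough gene. RPL36A had a coefficient of variation of 15.7% over the 6 cell libraries and RPL36A-HNRNPH2 one of 42.3%, while the sum of the pair varied by 6.17%, at 756 to 905 CPM by raw totals. In exosomes RPL36A alone varied by 4.86% and the sum by 4.97%. RPL17-C18orf32 held 29 to 246 reads a cell library beside 4605 to 5661 for RPL17. How reads shared by overlapping genes or by copies of a gene were assigned is not given in the sources used here. GENCODE 29 names 734 RPL pseudogenes, many near-identical to the messages, and 0 of them were among the listed genes, so each member's level may hold or lack reads shared with such copies.

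Levels were compared between members per kilobase of the principal transcript. In Con cells RPL13A stood highest, at 2506 ± 69.0 CPM per kilobase (SD, n = 3), followed by RPL36A at 1421 ± 166 and RPL19 at 1388 ± 16.9. RPL36A and RPL19 differed by less than the SD of RPL36A. RPL22L1 (10.7), RPL7L1 (16.3) and RPL37 (25.7) were lowest. The place of RPL37 rests on an annotated transcript of 7686 bases, with a coding length of 291 bases. Not divided by length, RPL37 read 198 CPM in Con cells, against 23.5 CPM for RPL22L1 and 72.8 CPM for RPL7L1. The other lengths described below were 7686 and 8153 bases for RPL37, so it stayed at rank 49 with each. The order was much the same in Con exosomes, where RPL13A (5166 CPM per kilobase) and RPL19 (3831) led and RPL36A was 6th (Spearman correlation of levels 0.96 over 51 genes). Positions depend on the length used: with the union of all exons RPL13A stayed first and RPL36A fell from rank 2 to 20, and with the shortest of equally ranked transcripts RPL28 moved from rank 36 to 12 and RPL14 from 47 to 27. Members with a high level in cells were not those with the largest exosome ratio (Spearman correlation of mean log2 CPM in cells and log2 fold change 0.07, n = 51, which share the cell values).

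Among features that the choice of members did not use, the GC content of the transcript went furthest with the exosome over cell ratio, with a Spearman correlation of 0.47 over 51 members and 0.29 over 11799 genes. RPLP2 has 60.6% GC and RPL36 62.2%, while RPL36AL has 42.4% and RPL7 43.1%. RPL26L1, with 45.2%, was an exception near the top. Low GC also went with high log2 fold changes in RPL34 (41.9%, the lowest of the members, 1.18), RPL37 (43.2%, 1.30) and RPL26 (45.0%, 1.31). The ratio of RPL7 had an SE of 0.63. The correlation with transcript length was -0.11 in members and -0.22 over all genes. The part of GC content and of the library kits in these ratios was not tested. Members with a small nucleolar RNA gene inside had a median log2 fold change of 0.78 (n = 19) and the others 0.81 (n = 32).

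Circular RNAs, counted by reads across a back-splice junction, rarely came from these genes. Of 5179 circular RNAs listed in cells, 2 lay within members, 1 each in RPL34 and RPL30, each with 3 reads in Con cells 3 and 0 in the other cell libraries. Of 939 listed in exosomes, 0 lay within a member.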

How the data were processed

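Per the file headers, the authors deposited 1 column of counts per library, whole numbers for each Ensembl gene or circular RNA. The submitters' processing notes name GRCh38, HISAT2 and StringTie; how reads were counted, the use of strand and versions were not stated in the labels or headers. The quasi-likelihood F test of edgeR 4.0.16 in R 4.3.3 (robust, trimmed mean of M-values scaling, filterByExpr with minimum count 10 and total 15) was run two-sided on the whole table, with Benjamini-Hochberg adjustment over the genes tested and a threshold of 0.05. Ang was set against Con in cells and in exosomes, and over all 12 libraries (11940 genes listed in both) exosomes against cells and the difference of the Ang changes. Shares, departures and readthrough sums use raw totals. Alternatives were DESeq2 1.42.0, other scalings, no filter, a replicate block, each label alone and leaving out each library. The scripts were tested on simulated data. Named were the 6 highest and 6 lowest members between compartments, the 3 smallest p-values per comparison, the 3 highest and lowest levels, and stalk, 5S, paralog and parent genes with RPL39 and RPL41. RPL6, RPL7A, RPL8, RPL9, RPL10A, RPL14, RPL17, RPL21, RPL34 and RPL35 were also named after their values were seen. The members and gene lists were chosen with earlier results of these data known; the shortest transcript length and the other lists' alternatives were chosen after seeing the data. Same-numbered libraries did not deviate together (correlations from -0.03 to 0.02).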

Additional observations from a re-analysis of the deposited data

How the results depend on the processing

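Across 20 alternatives, 36 to 47 of 51 members were called higher in exosomes and 0 lower; none of the alternatives called a member between Ang and Con within a compartment, and DESeq2 called 1 for the difference of those changes. The members' median log2 fold change between compartments, 0.81, was 0.59 with raw library totals, 0.85 within Con alone and 0.74 within Ang alone, and ran from 0.79 to 0.86 leaving out 1 library at a time; the cause was not tested. Values turned below 0 with raw totals for RPL36AL (-0.12), RPL4 (-0.070), RPL7 (-0.067) and RPL24 (-0.025), and within Ang alone for RPL36AL (-0.0080); leaving out 1 library RPL7 ran from -0.14 to 0.42. None of these passed the test. Of the members called higher, RPL5, RPL30, RPL39 and RPL41 missed the threshold with raw totals and, with RPL10A, RPL21, RPL22L1, RPL26 and RPL27A, within Ang alone, where 3 libraries face 3. Within Con alone RPL9 missed it (adjusted p = 0.0536) and RPL39L passed (0.89, adjusted p = 0.0383). RPL4 passed with DESeq2 (0.18, adjusted p = 0.000721), as did RPL24 (0.22, adjusted p = 0.0182), and RPL4 also passed with RLE scaling (0.18, adjusted p = 0.0308) and without Con cells 3, Ang cells 3 or Ang exosomes 2 (adjusted p of 0.0344 to 0.0368), as did RPL7L1 without Ang exosomes 3 (0.58, adjusted p = 0.0383). Leaving out 1 library, the assembly factors called lower numbered 5 to 11 (8 with all), the mitochondrial genes 1 to 3, and EIF3E was lost without any 1 cell library, Con exosomes 1 or Ang exosomes 1. The replicate block called 44 members higher, with RPL30 at an adjusted p of 0.0529, and moved the calls over all genes from 4380 to 3893. Same-numbered libraries did not deviate together over the genes tested, which cannot show whether the numbers pair them. In exosomes RPL22L1 stood on 10 to 54 reads a library and RPL39L on 13 to 46, which limits their precision.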
